A study of Drosophila melanogaster with 9 samples.

Results

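The intestine of the fly is wrapped in visceral muscle, and 10 genes that build or anchor the contractile machinery of muscle were followed across all 9 libraries of a study of the RNA-binding protein Swm. The genes were chosen by name, out of 17806 named genes in each count table: Mhc, Mlc2, Act57B, Tm1, Tm2, up, sls, bt, Zasp52 and Msp300. All 10 were present in both tables. Visceral muscle is a layer outside the epithelium, so a whole dissected intestine holds it, while a sort for GFP-positive epithelial progenitors is meant to leave it behind.

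Progenitors sorted from the intestines of adult female Drosophila melanogaster were profiled by RNA-seq, with 3 control libraries labelled WT and titled esgTS and 3 libraries labelled swm RNAi. In this field esgTS names a temperature-sensitive driver that is active in the progenitors (stem cells and enteroblasts). Each of these replicates pooled 100 flies and 30000 to 50000 sorted cells, after the intestines were dissociated with elastase. CLIP-seq, which sequences the RNA that comes down with a protein, was made from whole intestines labelled WT and Control, without a sort: 1 library of the total lysate (input) and 2 immunoprecipitates with beads carrying antibody to Swm (Swm IP). All libraries were depleted of ribosomal RNA. The libraries held between 14627251 and 19962224 counts in RNA-seq and between 2451369 and 8497190 in CLIP-seq. Levels are given as CPM, counts per 1000000 of a library whose size was scaled by the TMM method of edgeR. The swm transcript did not differ between the progenitor groups (control 144 ± 24.3 CPM, swm RNAi 144 ± 13.4 CPM, SD, n = 3 each, edgeR adjusted p = 0.998), so the library label alone defines the RNAi group. Libraries stood apart for the contractile genes in 2 places: control replicate 2 had the lowest Msp300 and Tm1 levels of the 6 progenitor libraries, and 7 of the 10 transcripts were at least 2-fold higher in Swm IP replicate 2 than in replicate 1.

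Muscle contracts when myosin of the thick filaments pulls on actin of the thin filaments, and calcium controls the pull through troponin and tropomyosin. Titin-like proteins tie the filaments to the Z-disc, the plate that borders each contractile unit. Mhc encodes the muscle myosin heavy chain and Mlc2 its regulatory light chain. Act57B encodes a muscle actin, Tm1 and Tm2 encode tropomyosins, and up encodes troponin T. sls and bt encode the titin-like proteins Sallimus and projectin, Zasp52 encodes a PDZ and LIM domain protein of the Z-disc, and Msp300 encodes a giant nesprin that holds nuclei in place. Tm1, Zasp52 and Msp300 are also known to work in cells other than muscle.

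The genes differed widely in size, which matters because the RNA-seq counts refer to exons and the CLIP-seq counts to the whole span of a gene. Positions are from the authors' deposited table and are identical in the BDGP6 annotation. Msp300 (2L, 5100877 to 5207002, plus strand) had the longest span of the 10 in the CLIP-seq table, 106126 bases, of which 34.2% is intron. sls (3L, 2039681 to 2115611, minus strand) spans 75931 bases, Zasp52 (2R, 15762565 to 15817004, minus strand) 54440 bases and bt (4, 724400 to 776474, plus strand) 52075 bases. Zasp52 had the largest intron share, 80.2%, and 42.3% of its span is covered by other annotated genes, with tun on the opposite strand. Tm1 (3R, 15278220 to 15308779, plus strand) and Tm2 (3R, 15310193 to 15315197, plus strand) are neighbours with 1413 bases between them. Mhc (2L, 16766566 to 16788766, plus strand), up (X, 13593474 to 13602578, minus strand), Mlc2 (3R, 30171438 to 30174551, minus strand) and Act57B (2R, 20944021 to 20946431, plus strand) are shorter, down to the 2411 bases of Act57B. Act57B is 1 of several closely similar actin genes and Tm1 and Tm2 are related in sequence, so reads could have been split between such copies.

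In the whole-intestine input all 10 transcripts were well detected. Msp300 stood at 4390 CPM (exact 95% binomial interval 4326 to 4455) and Tm1 at 586 CPM (562 to 610). The 8 others ran from 77.9 CPM in Tm2 (69.6 to 87.0), with 315 counts, to 490 CPM in Mhc (468 to 512), with 1979 counts. Intervals from counts cover counting error only, and the input is 1 library with no replicate. Per kilobase of gene span the order was another: Act57B had the highest level in the input, 113 CPM per kb, then Mlc2 with 82.9 and Msp300 with 41.4 CPM per kb, and Zasp52 had the lowest, 3.84 CPM per kb. The 2 shortest genes of the 10 lead this order, and Zasp52, sls and bt end it. Introns count toward the span, so these values are not levels per length of mature RNA. Stretches shared with other genes, 42.3% of the span in Zasp52, count toward it too, though their reads may go uncounted.

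In the sorted control progenitors the 10 genes fell into 2 very unequal sets. Msp300, Tm1 and Zasp52 were abundant or clearly present, and the 7 others were at trace levels. Msp300 had 8446, 1738 and 5544 CPM in control replicates 1, 2 and 3, and Tm1 had 1222, 612 and 816 CPM. Zasp52 had 80.5, 59.8 and 81.4 CPM. Per kilobase of exon, Tm1 (93.3 CPM per kb) and Msp300 (75.1 CPM per kb) stood above 92.7% and 91.2% of the 8899 genes tested in the progenitors, and Zasp52 (6.86 CPM per kb) above 36.3%. These 3 transcripts were thus clearly detected in cells sorted to leave muscle out.

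The 2 genes of the thick filament were low in controls. Mhc had 1.33, 5.0 and 7.37 CPM in control replicates 1, 2 and 3, from 26, 102 and 150 counts. Mlc2 had 1.48 and 5.10 CPM in replicates 1 and 2 and 0 counts in replicate 3, where 3 counts would be 0.147 CPM. The library with the most Mhc was therefore the 1 without any Mlc2.

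The thin-filament genes Act57B, Tm2 and up were lower still. Act57B had 66 counts (3.24 CPM) in control replicate 2 and 0 counts in replicates 1 and 3. Tm2 had 1.02 and 1.96 CPM in replicates 1 and 2 and 0 counts in replicate 3, and up had 2.35, 1.27 and 0.933 CPM. Their levels did not follow the elastic-filament genes: sls had 7.31, 3.58 and 11.2 CPM and bt 5.62, 2.40 and 5.26 CPM, each lowest in the replicate where Act57B and Tm2 were highest. With so few counts per library, a gene at 0 beside a partner with over 100 counts shows how uneven these traces were between transcripts of the same filament.

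**Figure D1:**
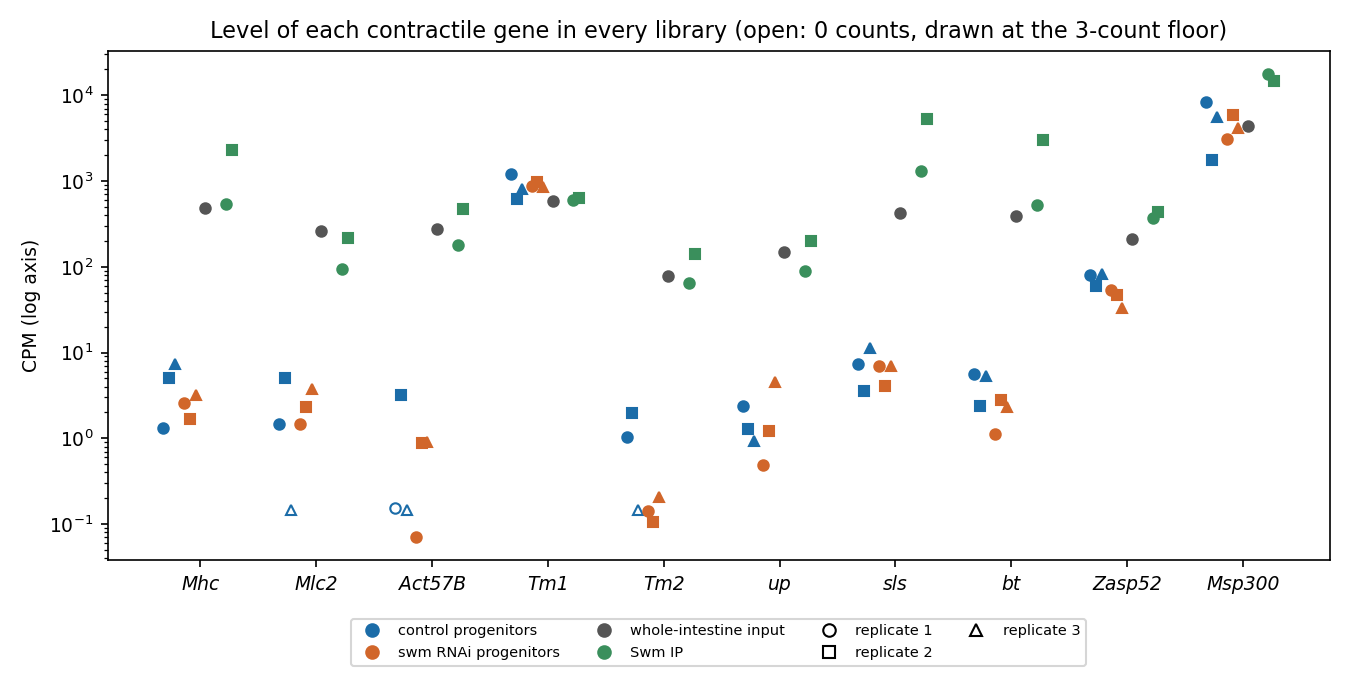
Level of each of the 10 genes in CPM (log axis) in every library: control and swm RNAi progenitors (3 libraries each), input (1) and Swm IP (2), with the marker shape for the replicate. Msp300, Tm1 and Zasp52 in progenitors lie closest to their whole-intestine levels, while the 7 others lie far lower in every progenitor library; open markers are libraries with 0 counts, drawn at the level of 3 counts.

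Set beside the input, the control mean of the 7 trace genes was 0.394% of the input CPM in Act57B, 0.849% in Mlc2, 0.933% in Mhc, 1.03% in up, 1.13% in bt, 1.28% in Tm2 and 1.73% in sls. Leaving out 1 control gave 0% to 0.591% in Act57B, 0.287% to 1.27% in Mlc2 and 0.656% to 1.91% in Tm2, each lowest without control replicate 2. Msp300 stood at 119% of the input (82.9% without control replicate 1), Tm1 at 151% and Zasp52 at 35.3%. The controls ranged from 39.6% to 192% of the input in Msp300, from 104% to 209% in Tm1 and from 28.6% to 38.9% in Zasp52. The gap between these 3 genes and the others exceeded the spread between the control libraries. The tables were normalized separately and used different gene models, so no test was made between them and intronic reads may lower these percentages. Input reads left uncounted where other genes overlap Zasp52 may raise its percentage, which was not tested. Of the 7278 genes with at least 10 input counts, 17.1% were below 10% of the input in control progenitors and 53.6% were above the input; the 10% limit was chosen after the values were seen. Fewer muscle cells and less RNA per cell cannot be told apart in such bulk libraries.

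Other genes of the contractile apparatus gave a like picture. Of 5 other thick-filament genes with enough input counts 3 were below 10% of the input, and of 8 other thin-filament genes 6 were. Of 10 other Z-disc genes 4 were below it and 4 were above the input, and of 9 genes that attach muscle to its matrix, such as the integrin gene mys and the talin gene rhea, 7 were above the input. These integrin genes also act in progenitors. The 7 visceral muscle regulators did not share this pattern: the 4 with enough input counts had a median of 71.4% of the input, with 0 below 10%, and Mef2, a muscle transcription factor gene, had a control mean of 74.7 CPM. In the same list bin and HLH54F had 0 counts in all 6 progenitor libraries, beside 8 and 3 counts in the input. Enterocyte markers, for comparison, had a median of 0.837% of the input, with 10 of 11 below 10%, and progenitor markers a median of 1427%, with all 9 above the input.

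The comparison of swm RNAi with control asked what differs in progenitors labelled swm RNAi. None of the 9 contractile genes that passed the filter on low counts was called in either direction (edgeR quasi-likelihood, adjusted p below 0.05), against 3.17% of the 8899 genes tested. At an unadjusted p below 0.05 there was 1, Zasp52, against 12.4% of all genes, and DESeq2 called none at an adjusted p below 0.05. The median log2 fold change of the 9 was -0.31, beside 0.033 over all genes, and 6 of the 9 had negative values. Tm2 did not pass the filter.

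Zasp52 came closest to a call. It had 53.4, 46.7 and 33.5 CPM in swm RNAi replicates 1, 2 and 3, against 80.5, 59.8 and 81.4 CPM in the controls. All 3 swm RNAi libraries lay below all 3 controls, which was so for 7.94% of all genes tested. The control mean was 73.9 ± 12.2 CPM and the swm RNAi mean 44.5 ± 10.2 CPM (SD, n = 3 each), a log2 fold change of -0.73 (SE 0.21, 95% interval -1.19 to -0.27, edgeR adjusted p = 0.112). The authors' deposited table gives -0.76 with an adjusted p of 0.0700. With no filter on low counts edgeR gave an adjusted p of 0.00888, the 1 alternative run in which any of the 10 genes was called; over the other alternatives the edgeR and DESeq2 adjusted p of Zasp52 ran from 0.0651 to 0.427.

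Msp300 and Tm1, the 2 most abundant of the 10 in progenitors, showed no difference beyond their spread. Msp300 had 3122, 5880 and 4156 CPM in swm RNAi replicates 1, 2 and 3, all inside the range of the controls, and a log2 fold change of -0.26 (SE 0.58, 95% interval -1.68 to 1.16, edgeR adjusted p = 0.937). Its value rested on single libraries: it was -0.68 (SE 0.27) without control replicate 2 and 0.26 (SE 0.59) without control replicate 1, with no call in either. Tm1 had 885, 983 and 859 CPM with swm RNAi, again inside the control range. Its log2 fold change was 0.041 (SE 0.24, 95% interval -0.48 to 0.56, adjusted p = 0.975), and its sign turned with library sizes alone (-0.012) and without control replicate 2 (-0.17), control replicate 3 (-0.011) or swm RNAi replicate 2 (-0.016). The interval for Tm1 leaves out a 2-fold change in either direction, while that for Msp300 does not.

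The trace genes overlapped between the groups and their intervals were wide. Of the thick filament, Mhc had 2.60, 1.67 and 3.24 CPM with swm RNAi (log2 fold change -0.87, SE 0.76), and Mlc2 had 1.47, 2.30 and 3.79 CPM (0.20, SE 1.33). In the thin filament, up had 0.491, 1.20 and 4.54 CPM (0.45, SE 1.13), Act57B had 1, 17 and 13 counts and Tm2 2, 2 and 3 counts. Act57B had a fitted log2 fold change of -0.79 (SE 1.99) and stood at 6.45 without control replicate 2, the single control with counts, and at 2.01 with a replicate block. Of the elastic filaments, sls had 7.02, 4.02 and 6.88 CPM (-0.31, SE 0.50) and bt 1.12, 2.77 and 2.34 CPM (-1.09, SE 0.73). The edgeR adjusted p of these 6 tested genes ran from 0.664 in bt to 0.979 in Mlc2.

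**Figure D2:**
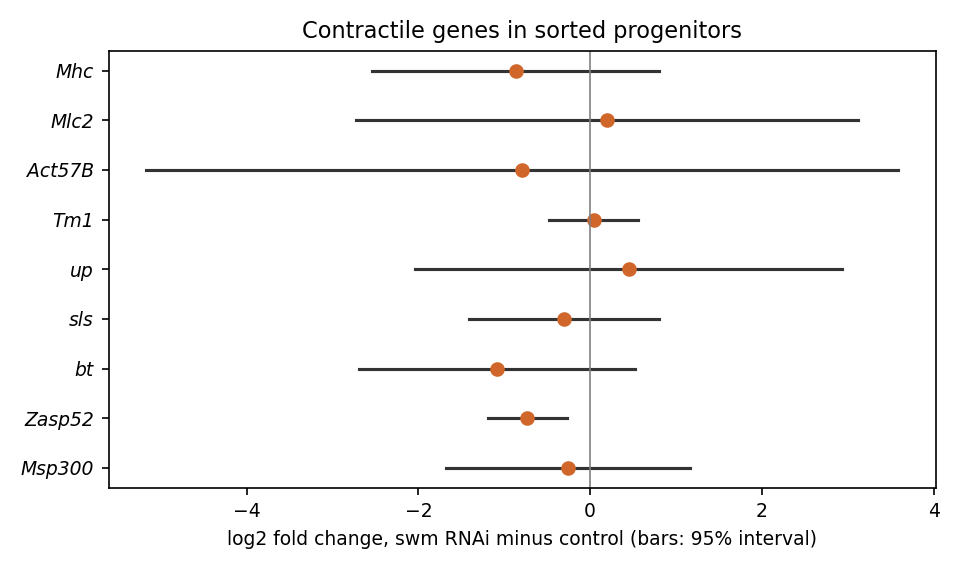
Log2 fold change of swm RNAi over control progenitors for the 9 genes tested, with 95% intervals as bars (n = 3 libraries per group). Zasp52 alone has an interval that leaves out 0, from -1.19 to -0.27, without passing the adjusted threshold; Tm1 has a narrow interval around 0 and Act57B the widest.

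Taken as a sum, the 7 trace genes came to 19.1, 22.5 and 24.8 CPM in the controls and 12.9, 13.0 and 21.9 CPM in the swm RNAi libraries, or 0.625% to 1.20% of the input. The groups overlapped. This grouping was made after the values were seen and no test was run on it. The sum of 11 enterocyte markers, which a progenitor sort can also carry along, moved the other way. It ran from 639 to 923 CPM in the controls and from 1002 to 2383 CPM with swm RNAi. Protease genes weighed most in it: the mean went from 183 to 488 CPM in Jon65Aiv and from 130 to 375 CPM in yip7. Myo31DF went down, from 310 to 248 CPM, and Myo61F was flat, at 35.4 and 35.9 CPM. None of the 9 markers tested was called, against 3.17% of all genes, and 2 had a negative log2 fold change. Their part in the muscle values was not tested.

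Among 61 other muscle genes, 39 were tested in the progenitors and 1 was called, where 3.17% of all genes were. This was Calx, which encodes a sodium-calcium exchanger that clears calcium from excitable cells. It had 601, 359 and 393 CPM in control replicates 1, 2 and 3 and 139, 150 and 112 CPM in the swm RNAi libraries, with no overlap. Calx fell by 1.75 on the log2 scale (SE 0.23, edgeR adjusted p = 0.00142). No other gene of the thick filament (4 tested), thin filament (5), Z-disc (9), attachment (8), visceral muscle regulator (3) or muscle energy (5) lists was called, and of the calcium list Calx was the 1 of 5. Of 10 non-muscle actomyosin genes, among them zip, the non-muscle myosin heavy chain, and the cytoplasmic actin gene Act5C, none was called, with a median log2 fold change of -0.0059.

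The CLIP-seq comparison asked which transcripts come down with Swm. Msp300 and Zasp52 were higher in the IP, 2 of the 10, against 9.25% of the 8375 genes tested, and none was lower, against 8.97%. With library sizes alone in place of TMM the split over all genes moved from 775 higher and 751 lower to 1114 higher and 417 lower, and the same 2 contractile genes were called. Only 1 degree of freedom is left after this fit, in which the spread of the 2 immunoprecipitates stands for that of the input, and a mock immunoprecipitate was not analysed here. Both IP libraries lay above the input in 6 of the 10 genes, against 40.0% of all genes, and at least 2-fold above it in 2, Msp300 and sls, against 11.6%. Ratios in this comparison rose with gene span over all genes, so the ratios of the 10 contractile genes are given beside the median of the 200 genes nearest in span.

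Msp300 stood at 4390 CPM in the input, 17757 CPM in Swm IP replicate 1 and 14508 CPM in replicate 2. Both IP libraries stood well above the input and close to each other. The log2 ratio was 1.88 (SE 0.42, edgeR adjusted p = 0.000261), beside a median of 1.38 for genes of like span, and 67.5% of those genes had a lower ratio. Zasp52 went from 209 CPM to 375 and 436 CPM, a log2 ratio of 0.96 (SE 0.26, adjusted p = 0.00445), which is below the median of 1.20 for genes of its span. The authors' deposited table gives 1.91 for Msp300, with an adjusted p of 1.02e-09, and 0.99 for Zasp52, with 0.0170. With the trend with gene span removed, neither was called: Msp300 stood at 0.34 (adjusted p = 0.738) and Zasp52 turned to -0.44 (adjusted p = 0.368).

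Tm1, the third gene clearly detected in progenitors, was flat across the lysate libraries. Its 586 CPM in the input compared with 604 CPM in Swm IP replicate 1 and 632 CPM in replicate 2, and the log2 ratio of 0.077 (SE 0.27, 95% interval -0.45 to 0.61, edgeR adjusted p = 0.887) leaves out a 2-fold difference. Genes of like span had a median of 0.98, and 8.5% of them had a lower ratio than Tm1. The span used for Tm1 was its CLIP-seq length of 27409 bases, which is shorter than its deposited coordinates give. With the span trend removed Tm1 was called lower, at -1.06 (adjusted p = 0.00244), where 6.20% of all genes were called lower and 1.55% higher.

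The 7 other genes gave ratios that the 2 IP libraries did not share. sls, which encodes Sallimus, stood at 428 CPM in the input, at 1322 CPM in Swm IP replicate 1 and at 5319 CPM in replicate 2. It was above the input in both, by 3.09-fold and 12.4-fold, and its log2 ratio of 2.96 had an SE of 1.66 (edgeR adjusted p = 0.494). Projectin's gene bt, with an input level of 392 CPM, reached 525 CPM in replicate 1 and 2998 CPM in replicate 2 (log2 ratio 2.17, SE 1.96, adjusted p = 0.644). Mhc went from 490 CPM to 541 and 2301 CPM (1.54, SE 1.59, adjusted p = 0.687). Genes of like span had a median log2 ratio of 1.34 for sls, 1.18 for bt and 1.01 for Mhc, and all 3 genes lay above it. For sls, bt and Mhc the step from input to IP replicate 1 was smaller than the step between the IP replicates. With the robust option off, which lets genes with discordant replicates borrow the common spread, sls (adjusted p = 0.00264) and bt (0.0263) were called higher.

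The short filament genes fell on both sides of the input. From input to IP replicates 1 and 2, Act57B went from 274 CPM to 181 and 474 CPM, and up from 148 CPM to 88.4 and 200 CPM. Tm2 went from 77.9 CPM to 65.3 and 140 CPM. Each of these 3 was below the input in Swm IP replicate 1 and above it in replicate 2. Mlc2, at 258 CPM in the input, 93.0 CPM in replicate 1 and 214 CPM in replicate 2, was below the input in both (log2 ratio -0.74, SE 0.47, adjusted p = 0.382). Mlc2 was called lower in 2 of the alternatives run, with DESeq2 size factors (edgeR adjusted p = 0.0473) and with no filter (0.0396); over the others its adjusted p ran from 0.163 to 0.701. The fitted log2 ratios of Act57B, up and Tm2 were 0.27, -0.019 and 0.41, where genes of like span had medians of -0.30, 0.53 and 0.25; for Mlc2 that median was -0.078. The edgeR adjusted p of Act57B, up and Tm2 ran from 0.467 to 0.983.

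**Figure D3:**
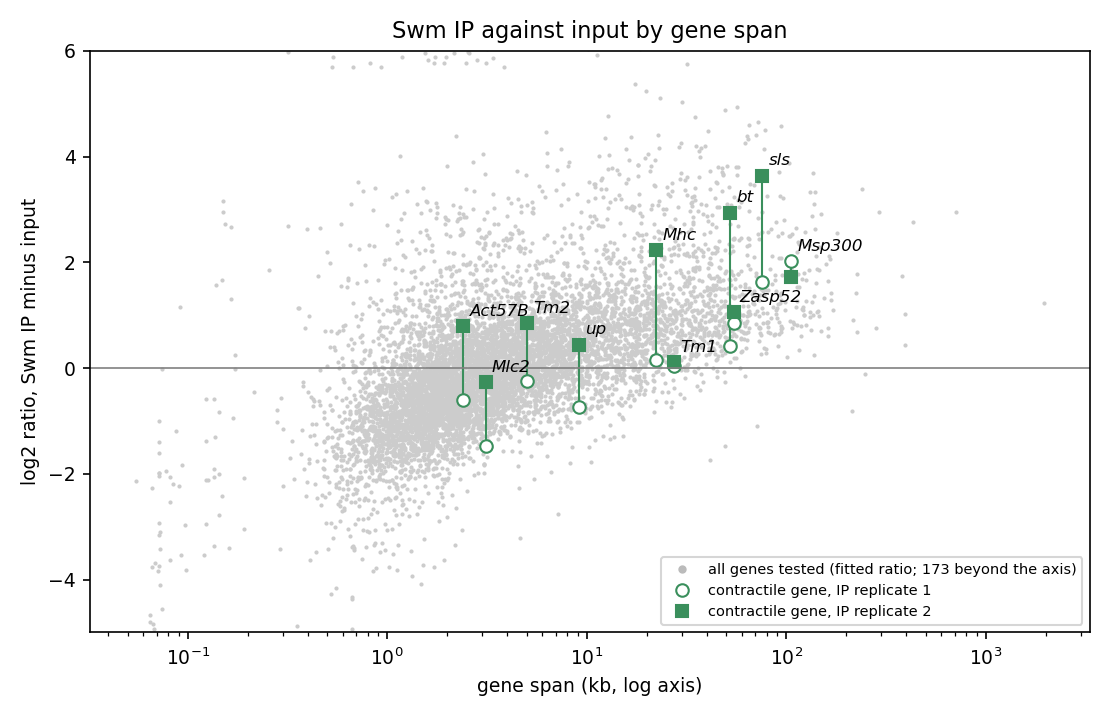
Log2 ratio of Swm IP over input against gene span (kb, log axis) for all 8375 genes tested (grey, fitted ratio) and, for the 10 contractile genes, separately for IP replicate 1 (open circles) and replicate 2 (squares), joined by a line. Ratios rise with span over all genes; the lines are short in Msp300, Tm1 and Zasp52 and long in the 7 others, each with replicate 2 on top.

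The difference between the 2 IP libraries was itself a pattern across the 10 genes. bt was 5.71-fold higher in Swm IP replicate 2 than in replicate 1 (exact 95% interval from counts 5.41 to 6.03), Mhc 4.26-fold (4.03 to 4.49) and sls 4.02-fold (3.89 to 4.17). Act57B was 2.63-fold higher (2.39 to 2.89), Mlc2 2.30-fold (2.01 to 2.64), up 2.26-fold (1.97 to 2.61) and Tm2 2.14-fold (1.82 to 2.53). All 7 were at least 2-fold higher in replicate 2, by the CPM ratio and with a prior count of 2 added before the log, against 12.0% of the 8375 genes tested. Msp300 (0.817-fold, 0.808 to 0.826), Tm1 (1.05-fold, 0.989 to 1.11) and Zasp52 (1.16-fold, 1.08 to 1.25) were not. None of the 10 was at least 2-fold lower in replicate 2, against 7.77% of all genes. With 1 library on each side this compares those libraries and has no replicate check. Summed, the 7 genes made up 2067 CPM of the input, 2815 CPM of Swm IP replicate 1 and 11647 CPM of replicate 2, or 136% and 563% of the input. The longest genes weighed most in these sums. In replicate 1 sls had 1322 CPM, against 428 CPM in the input, while Mlc2, Act57B, Tm2 and up lay below the input. In replicate 2 sls, bt and Mhc had 5319, 2998 and 2301 CPM.

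The 7 genes that differed between the IP libraries were the 7 that lay below 10% of the input in control progenitors, and the 3 that differed by less than 2-fold were the 3 above that limit. Among the 61 other muscle genes, 17 with enough input counts were below 10% of the input, and 12 of these were at least 2-fold higher in IP replicate 2, with a median of 2.53-fold; of the 32 others, 3 were, with a median of 1.17-fold. The gap was not seen in every set of genes low in progenitors. Of the 10 enterocyte markers below 10% of the input none was 2-fold higher in replicate 2, and their median was 1.12-fold. Over all genes, 17.8% of the 1245 genes below 10% and 7.31% of the 6033 others were at least 2-fold higher in replicate 2. A single input library was used here, so the muscle content of the lysate behind each IP and the capture by the beads cannot be told apart.

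**Figure D4:**
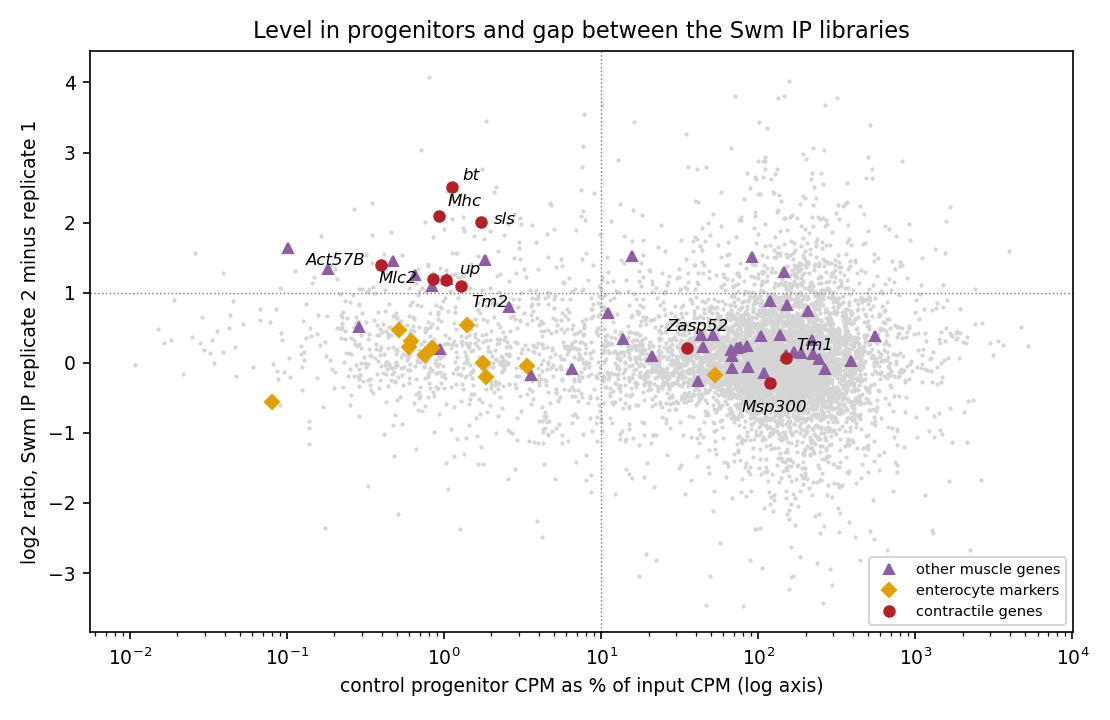
Log2 ratio of Swm IP replicate 2 over replicate 1 against the level in control progenitors as a percentage of the input (log axis), for all genes with at least 10 input counts (grey), the 10 contractile genes (red), other muscle genes (purple) and enterocyte markers (yellow); genes at 0 in all controls are not drawn. The dotted lines mark 10% and 2-fold: 7 contractile genes lie in the upper left field and Msp300, Tm1 and Zasp52 lie on the right near 0, while enterocyte markers at the same low percentages stay under the 2-fold line.

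By list, the gap between the IP libraries was found in 4 of 5 other thick-filament genes and 6 of 10 other thin-filament genes tested. It was found in 2 of 10 other Z-disc genes and in 1 of 8 genes of calcium handling. The share over all 8375 genes tested was 12.0%, close to that of the calcium list. The genes named here were chosen after their values were seen: Prm, which encodes paramyosin, was 3.12-fold higher in replicate 2, Unc-89, which encodes obscurin, 2.74-fold, Mlp60A, a muscle LIM protein gene, 2.85-fold, and RyR, the calcium release channel gene, 3.49-fold. Of 6 visceral muscle regulators tested 3 showed the gap: bin was 6.77-fold (6 and 142 counts, exact 95% interval 3.03 to 18.7) higher, how 2.47-fold and vn, an EGFR ligand gene that visceral muscle expresses, 2.89-fold. Mef2 (1.31-fold) and org-1 (1.27-fold) of that list did not show it. bap, with 4 counts in replicate 1 and 28 in replicate 2, reached 2-fold by the CPM ratio but not with the prior count, so it is not among the 3. None of 9 attachment genes, 5 muscle energy genes or 10 non-muscle actomyosin genes was at least 2-fold higher. Tracheal markers were so in 4 of 8, and progenitor markers in none of 9. The 4 tracheal genes had only 5 to 33 counts in replicate 1. The tracheal marker with the most counts there, uif (195 and 933 counts), was 1.37-fold higher. Markers of enteroendocrine cells, of which 7 of 10 lay below 10% of the input in progenitors, showed the gap in 3 of 11 genes tested, fat body and ovary markers in 2 of 6 and hemocyte markers in 1 of 3. The 3 enteroendocrine genes had only 5 to 12 counts in replicate 1.

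**Figure D5:**
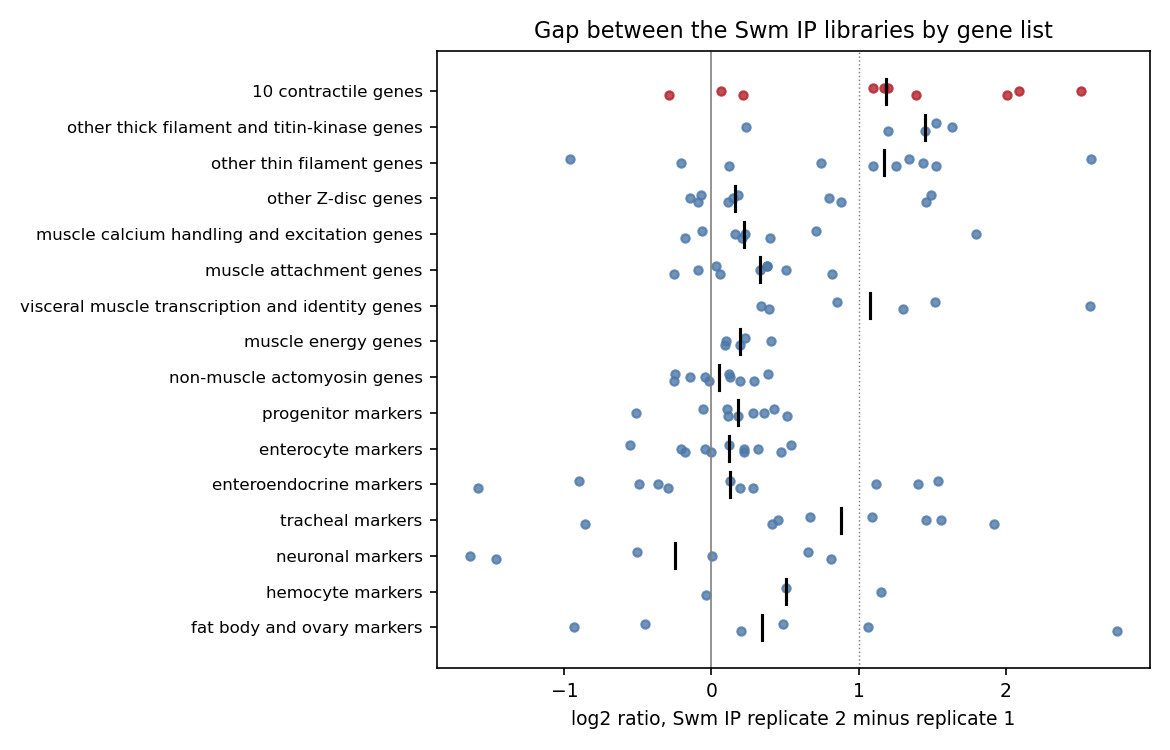
Log2 ratio of Swm IP replicate 2 over replicate 1 for each tested gene of the 10 contractile genes (red) and of the other lists (blue), with the list median as a black bar and 2-fold as a dotted line. The contractile, thick-filament, thin-filament and visceral muscle regulator lists have medians above 2-fold, and the non-muscle actomyosin, progenitor and enterocyte lists have medians near 0.

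Against the input, 10 of the 53 other muscle genes tested in the IP were called higher and 1 lower, where 9.25% of all genes were called higher and 8.97% lower. In the Z-disc list these were CAP, which encodes a vinculin-binding adaptor (log2 ratio 1.36, SE 0.29), and Lmpt, a LIM domain protein gene (0.74, SE 0.26). In the calcium list they were 2 calcium channel genes and Itp-r83A, the inositol trisphosphate receptor gene (1.05, SE 0.27). The channel genes, Ca-beta (3.34, SE 0.64) and Ca-alpha1D (1.79, SE 0.66), had only 13 and 24 counts in the input. The integrin gene if (1.21, SE 0.38), rhea (1.08, SE 0.28), how (1.39, SE 0.44), vn (1.81, SE 0.52) and the muscle actin gene Act79B (2.53, SE 0.91, from 9 counts in the input and 1 of the closely similar actin genes) were the other 5 called higher, and the glycolytic gene Pglym78 (-0.92, SE 0.29) was the 1 called lower. With the span trend removed 2 of the 10, Ca-beta and Act79B, remained called higher. Of the non-muscle actomyosin genes, Rok (1.13, SE 0.27) and MYPT-75D (1.03, SE 0.28), which encode a kinase of the myosin light chain and a subunit of its phosphatase, were called higher and tsr, the cofilin gene, lower (-1.54, SE 0.25), 3 of 10 tested, against those same shares of all genes. With the span trend removed, neither Rok (0.36, edgeR adjusted p = 0.516) nor MYPT-75D (-0.27, edgeR adjusted p = 0.690) was called, and tsr stayed lower (-1.33).

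The contractile genes varied in profile over the 6 progenitor libraries. Around the median of the 9 tested members, log2 CPM centred on the 6 libraries differed by a root mean square of 0.28 in Tm1, 0.39 in Zasp52 and 0.44 in sls, and by 1.97 in Mlc2 and 2.04 in Act57B, which both have libraries at 0 counts. Of the 8890 other genes tested, those nearest to that median profile were Su(z)12, a Polycomb group gene, chn, a zinc finger transcription factor gene, ITP, a neuropeptide gene, and CG6511 and CG8833, at distances of 0.117 to 0.123. None of the 5 was called between swm RNAi and control, where 3.17% of all genes were. They were picked by their values in the same 6 libraries, so this is no separate result.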

How the data were processed

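Read counts per gene were deposited by the authors without normalization. Cutadapt 2.9, SAMtools 1.10, STAR 2.7.3a, featureCounts, Subread 2.0.0 and DESeq2 are listed in the submitters' processing notes. Genome build, annotation and use of strand are not given in the sources used here, so reads of genes that overlap on opposite strands cannot be told apart. Lengths in the file headers leave out introns in RNA-seq and equal the deposited gene width for 99.82% of 9047 genes in CLIP-seq. Tm1 is an exception, with a CLIP-seq length of 27409 bases that is shorter than its deposited width. Genes nested in another gene can have no CLIP-seq count, as Mf, sals and Mlp84B did. The authors' deposited log2 fold changes and adjusted p-values are quoted only where named, and 9 sample columns beside them were left unused. A nameless row with at most 5 counts per library was dropped.

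All genes were fitted with edgeR 4.0.16 in R 4.3.3, using filterByExpr at a minimum count of 10, TMM and the quasi-likelihood test with the robust option, with Benjamini-Hochberg adjusted p below 0.05 as a call. An SE is the absolute log2 fold change over the root of F. Scripts were tested on simulated data. Alternatives (DESeq2 1.42.0, other scaling and filters, a replicate block, samples left out, and a span correction) follow at the end. The 10 genes and all lists were chosen with earlier results of these data known. Named are the 10 genes, swm, every called gene of the other muscle and actomyosin lists, and the 5 nearest profiles; further names are said to be chosen later or illustrate a list. No label states that replicates are independent crosses, and p-values cover only the variation among these libraries, which may be technical. Same-numbered samples showed no shared variation, and whether they were prepared together is not known.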

Additional observations from a re-analysis of the deposited data

How the results depend on the processing

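Direction and call held in most of the values recomputed. In progenitors, the 282 genes called over all genes became 475 with the DESeq2 Wald test, 527 with no filter and 141 to 392 with a replicate left out (141 without swm RNAi replicate 1). The count for the 10 genes went from 0 to 1 with no filter (Zasp52), and that for other muscle genes from 1 to 4 with DESeq2, 3 with no filter, 2 with the replicate block and 1 to 2 with a replicate left out. Correlations of deviations in same-numbered libraries were -0.063, -0.049 and 0.0040, beside -0.042 to 0.097 in the other pairs. They show no shared variation by number, but cannot tell whether same-numbered libraries were prepared together. Under the replicate block 287 genes were called, and Act57B (2.01), up (-0.0068) and swm (0.0073) changed sign. Tm1 did so with library sizes alone (-0.012). Leaving out 1 replicate gave log2 fold changes from -0.68 to 0.26 in Msp300, -0.38 to 1.76 in Mlc2, -1.41 to 6.45 in Act57B, -0.17 to 0.33 in Tm1, -0.65 to 0.13 in sls, -0.83 to 0.91 in up and -0.15 to 0.063 in swm; the cause was not tested.

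In the IP, the 2 of 10 genes called became 4 with the robust option off (sls and bt added), 3 with DESeq2 size factors or with no filter (Mlc2 added, lower) and 1 with the span trend removed (Tm1, lower). The 11 other muscle genes became 17 with DESeq2 size factors, 5 with the DESeq2 Wald test and 7 with the trend removed, and the 1526 over all genes became 919 with the Wald test and 649 with the trend removed. Library sizes alone moved the median log2 ratio of all genes from 0.0041 to 0.29. The sign of up turned with DESeq2 size factors (0.023), library sizes alone (0.27) and the Wald test (0.0066). With the trend removed it turned in Tm1 (-1.06), Zasp52 (-0.44), Lmpt (-0.67), rhea (-0.085) and MYPT-75D (-0.27); the cause was not tested. With a single IP library, a value with no test, Act57B ran from -0.56 to 0.80, Tm2 from -0.21 to 0.85 and up from -0.70 to 0.45. No paired analysis was possible because the input and the IP share only replicate number 1. The 7 genes below 10% of the input stayed below it, and the count of 7 at least 2-fold higher in IP replicate 2 did not change, under any alternative run on them. Depth limits the trace genes: 3 counts are 0.147 to 0.211 CPM in RNA-seq.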
